A study of Mus musculus with 11 samples.

Results

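The genes that carry new proteins into the endoplasmic reticulum (ER) and that coat the vesicles leaving it and returning to it were followed in AML12 cells, a non-tumour mouse hepatocyte line, with altered *Txndc5*, the gene of an ER protein disulfide isomerase. They were chosen by symbol alone, as all names beginning with Sec and a digit, the protein subunits of the signal recognition particle (SRP) and its receptor, *Ssr1* to *Ssr4*, *Spcs1* to *Spcs3*, the *Cop* coat subunits, the *Tmed* genes, *Sar1a* and *Sar1b*. Of 24849 gene names in the table, 67 matched and 64 reached 10 counts in at least 3 of the 11 libraries, a rule that 14036 names of the whole table passed. *Tmed11* and *Sec14l3* had 0 counts in every library and *Sec14l4* had at most 5, so those 3 were left out. The 4 KO libraries came from AML12 cells in which *Txndc5* was disrupted with CRISPR/Cas9 and puromycin selection (the genotype label reads knockdown), the 3 WT libraries from the parental line, and the 4 libraries labelled KI from AML12 cells meant to overexpress TXNDC5 from the *Rosa26* locus. KO and KI cells are selected lines, nothing in the labels says that the libraries of a group came from separate cultures, and the *p* values therefore measure the spread between these libraries only. Libraries are numbered as labelled (KO 5 to 8, WT 5-6, 7 and 8, KI 5 to 8), and values below follow that order.

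Proteins made for secretion are recognised by SRP as their signal sequence leaves the ribosome, handed to the SRP receptor, and threaded through the SEC61 channel, where the translocon-associated protein (TRAP) complex assists and signal peptidase removes the signal sequence. Folded cargo leaves the ER in COPII vesicles, which form when the GTPase SAR1 recruits the SEC23/SEC24 inner layer and then the SEC13/SEC31 outer layer. COPI vesicles carry ER residents back from the Golgi, and the p24 proteins (TMED) cycle between both compartments as cargo receptors. Hepatocytes secrete most plasma proteins by this route. By role, the 64 genes held 10 of SRP and its receptor, 6 of the translocon, 4 of TRAP, 5 of signal peptidase, 14 of COPII, 3 SNAREs of the Sec22 family, 8 of COPI and 10 p24 receptors (with *Tmed8*, which is counted there by its name), and 4 further genes (*Sec1*, *Sec14l1*, *Sec14l2* and *Sec14l5*) matched by name only and do not belong to this route.

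The libraries held 29840366 to 38422243 counts each. Levels are given in CPM, counts relative to the size of the library, with sizes corrected by TMM factors over all 11 libraries, which were 0.744 to 0.947 in WT, 1.05 to 1.13 in KO and 1.02 to 1.12 in KI. For *Txndc5*, KO 5 to KO 8 gave 364, 287, 430 and 408 counts, the WT libraries gave 3299, 3429 and 4046, and those labelled KI gave 5654, 6511, 6723 and 5344. It averaged 10.2 ± 1.90 CPM (SD, n = 4) in KO, 143 ± 4.37 CPM (n = 3) in WT and 169 ± 10.3 CPM (n = 4) in KI. It was lower in KO than in WT by a log2 fold change of −3.82 ± 0.15 (SE; edgeR adjusted *p* = 4.1e-08). Against WT, the KI libraries had a log2 fold change of 0.24 ± 0.12 (edgeR adjusted *p* = 0.136), so the overexpression that their label names did not pass the test in the counts of this gene, and "KI" below names the label. When counts were scaled to library totals in place of TMM, this change was 0.57 and passed.

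WT 8 stood apart from the other WT libraries. Chi-square per degree of freedom over all genes was 166 between WT 8 and WT 5-6 and 123 between WT 8 and WT 7, against 55.2 between WT 5-6 and WT 7. KO pairs ranged from 16.9 to 115 and KI pairs from 54.7 to 140, so the distance of WT 8 was the greatest within a group when set against WT 5-6. KO 5 stood apart as well, at 79.0 to 115 from the other KO libraries, where KO 6, KO 7 and KO 8 were 16.9 to 42.4 from each other. Among the members, the median log2 deviation of transcripts over 3500 bases minus that of transcripts under 1500 bases, each gene taken relative to its own mean, was −0.58 in WT 5-6 and −0.43 in WT 7, but 0.04 in WT 8, close to the KO range of −0.05 to 0.32 and the KI range of −0.15 to 0.26. Hence, counts of calls against WT are given by role with and without WT 8. One newly assembled entry took 11.3 to 17.1% of all WT counts, 4.32 to 6.44% of KO counts and 4.82 to 9.12% of KI counts. The scaling also mattered. Scaled to library totals, all genes tested had a median change of 0.38 (log2) in KO against WT and 0.31 in KI against WT, compared with −0.03 and −0.02 with TMM, and all changes below are relative to the bulk of genes that TMM centres.

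The cell type label was checked with marker lists. Of 13 hepatocyte markers, only *Apoa2* stayed at 3 counts or fewer in every library, *Krt8* was the most abundant, and the summed level was 8461 to 10455 CPM in KO, 5110 to 6932 CPM in WT and 7276 to 8779 CPM in KI. In KO against WT, 8 of the 12 hepatocyte markers tested were higher and 2 lower. *Apoa1* was 14.1-fold and *Cps1* 10.9-fold higher (the latter from only 4, 0 and 16 counts in WT), albumin measured 4115 ± 524 CPM in KO, 513 ± 198 CPM in WT and 246 ± 60.5 CPM in KI (SD), *Serpina1a* was 13.7-fold lower in KO than in WT and *Ttr* 1.91-fold lower, and *Krt8* and *Krt18* were 1.63-fold and 1.91-fold lower in KO than in KI. Biliary and progenitor markers did not move as one. In KO against WT *Krt7*, *Spp1* and *Sox9* were lower but *Afp* (2.15-fold) and *Krt19* (1.41-fold) higher, and in KI against WT *Afp* was higher (log2 2.02) and *Krt7* lower. Their sum, mostly *Spp1* in WT and KI and *Krt19* in KO, was 1341 to 1505 CPM in KO, 2975 to 4380 CPM in WT and 2606 to 3086 CPM in KI, with *Epcam* at 3 counts or fewer throughout. The fibroblast list was almost entirely *Vim* and summed to 1169 to 1284 CPM in KO, 689 to 897 CPM in WT and 689 to 796 CPM in KI (*Vim* 1.56-fold higher in KO than in WT), with *Col1a2*, *Col3a1*, *Pdgfrb* and *Lrat* at 3 counts or fewer. Endothelial markers summed to at most 0.425 CPM in any library. Immune markers, mostly *Cd68* (with *Adgre1* and *Clec4f* at 3 counts or fewer), summed to 1.32 to 2.26 CPM in KO, 6.64 to 9.20 CPM in WT and 2.52 to 5.66 CPM in KI. The part that these shifts in markers play in the results below was not tested.

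In KO against WT, 28 of the 63 members tested passed an adjusted *p* of 0.05, 13 higher and 15 lower, in a comparison where 55.1% of 13359 genes were called (26.7% higher and 28.4% lower). In KI against WT, 28 of 63 were called, 13 higher and 15 lower, against 42.3% of 13534 genes (21.2% higher, 21% lower). In KO against KI, 36 of 64 were called, 23 higher and 13 lower, against 54% of 13269 genes (27% in each direction). The 36 include *Tmed6* and *Sec14l5*, which passed the count rule mainly through the group where they were high, so their calls are no evidence of a difference. Where no other setting is named, "called" below refers to this edgeR test with TMM and all libraries. The share of members called was thus below that of all genes in KO against WT and close to it in the other comparisons, and the median log2 fold changes of the members, 0.03, −0.11 and 0.10, lay near those of all genes. Both comparisons against WT share the 3 WT libraries. Without WT 8, 19 members were higher and 18 lower in KO, and 17 higher and 18 lower in KI, and every call made with WT 8 was retained. Without WT 7, 13 were higher and 12 lower in KO, with 4 calls lost, and 11 higher and 9 lower in KI, with 8 calls lost. With library totals the split in KO became 32 higher and 7 lower, and in KI 24 higher and 6 lower. In bulk RNA, fewer transcripts per cell and fewer expressing cells cannot be told apart. Chromosomes differed in KO against WT, the other genes tested having a median of −0.34 on chromosome 11 (with *Sar1b*), −0.35 on chromosome 14 (with *Spcs1*) and on chromosome 18 (with *Srp19* and *Tmed7*), 0.26 on chromosome 2 (with *Sec23b*) and 0.53 on chromosome 7 (with *Sec23ip*). Their median was 0.01 on chromosome 5 (with *Sec31a*), 0.08 on chromosome 6 (with *Sec13*) and 0.13 on chromosome 3 (with *Sec24d* and *Sec24b*). In KI against WT it was −0.39 on chromosome 14 and 0.28 on chromosome 3. It was 0.21 there on chromosome 9 (with *Srpr*, *Srprb*, *Sec22c* and *Tmed1*) and 0.20 on chromosome 8 (with *Spcs3*). On chromosomes 11, 6 and 18 the KI against WT median was −0.09, −0.06 and 0.07. In KO against KI it was 0.44 on chromosome 7 (with *Copb1* and *Spcs2*) and 0.38 on chromosome 2 (with *Sec16a*). On chromosomes 5, 6 and 3 it was 0.05, 0.14 and −0.14. The part of these shifts in the members' values was not tested. The members differed by role and by gene, as drawn in the heat map and in the plot of fold changes.

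**Figure D1:**
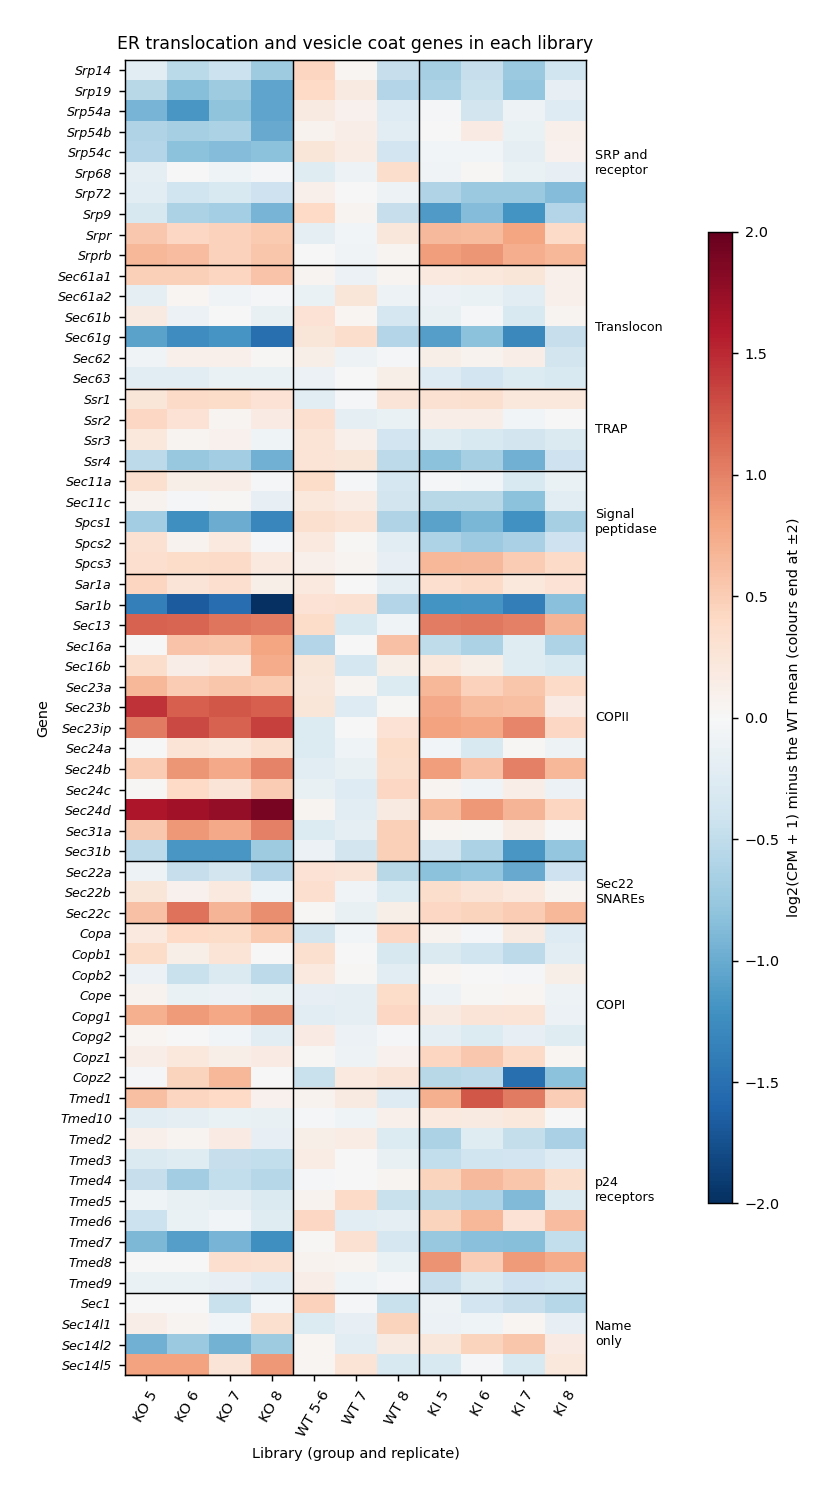
Level of the 64 genes (rows, grouped by role) in the 11 libraries (columns), as log2(CPM + 1) minus the mean of the 3 WT libraries, red above and blue below. *Sec13*, *Sec23b*, *Sec23ip* and *Sec24d* were red in all KO libraries while *Sar1b*, *Spcs1* and *Sec61g* were blue, and WT 8 differed from the other WT libraries in many rows. Colours end at 2 on the log2 scale, which 1 of 704 values exceeded.

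**Figure D2:**
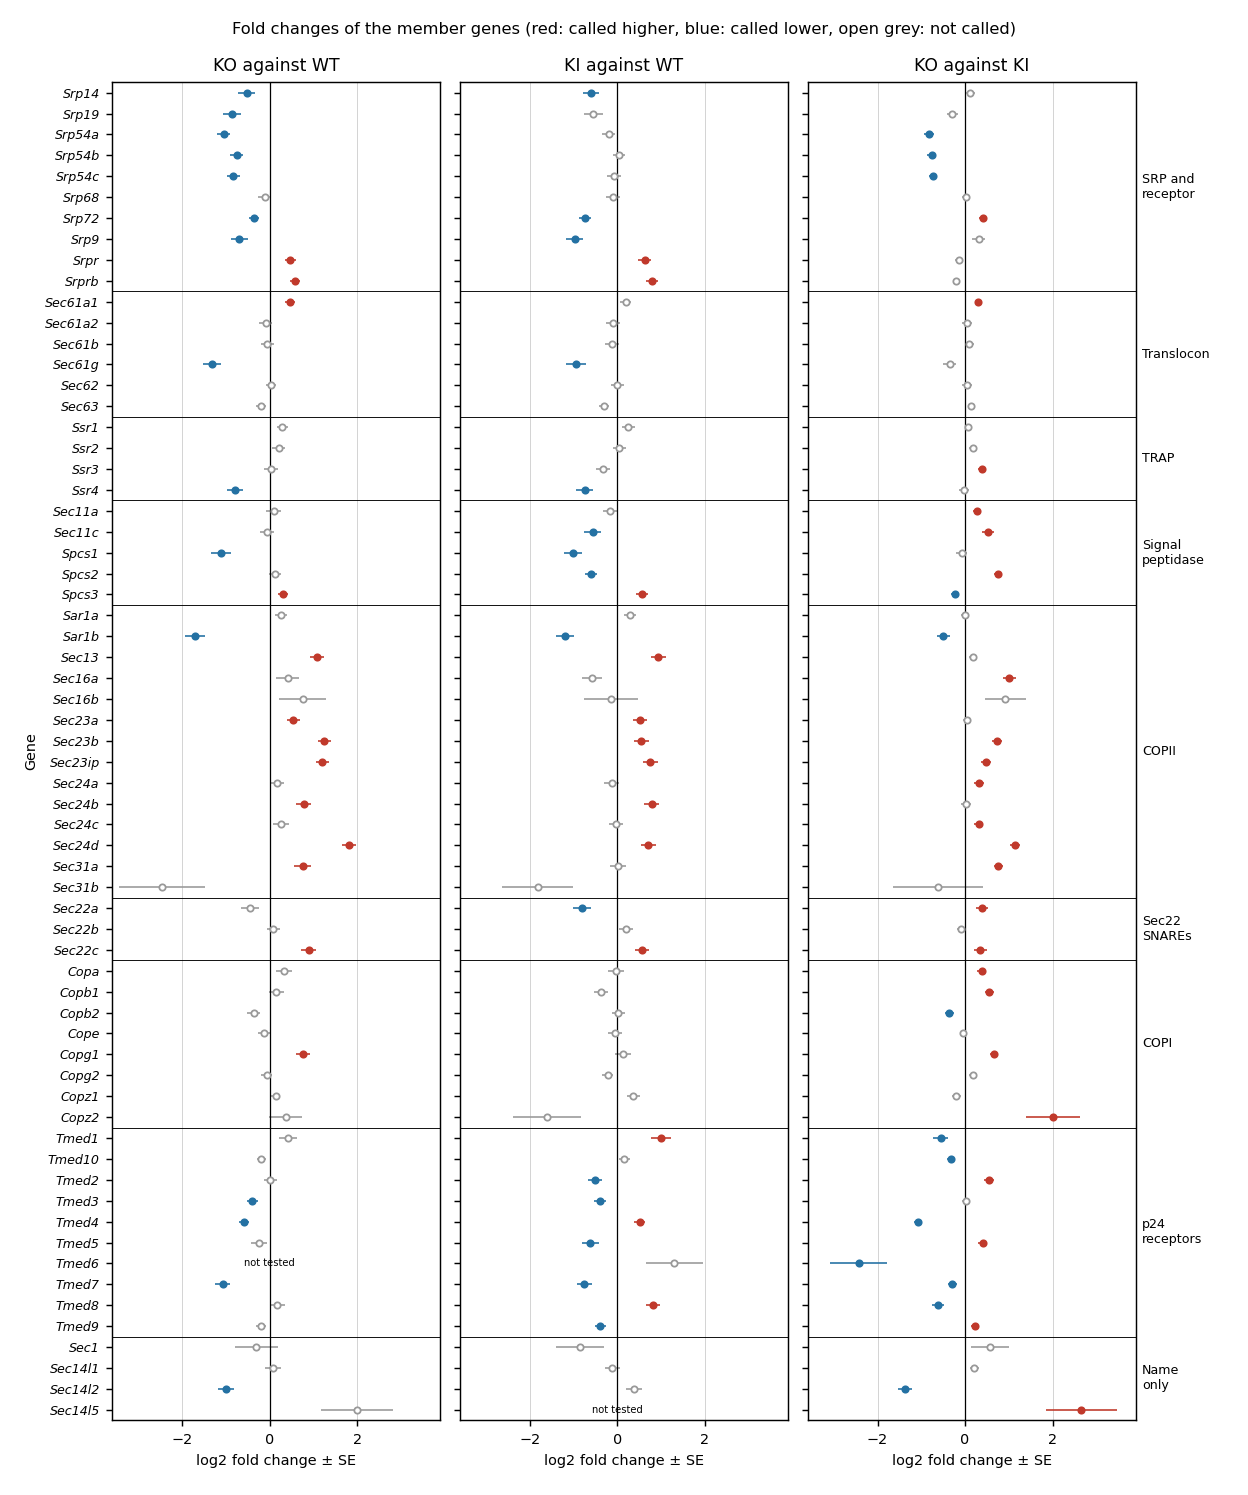
Log2 fold change with its standard error (bars) of each member in KO against WT, KI against WT and KO against KI, from edgeR. Filled red points were called higher (13, 13 and 23 genes) and filled blue points lower (15, 15 and 13), and open grey points were not called. The wide bars belong to genes with few counts such as *Sec31b*, *Sec16b*, *Copz2*, *Tmed6* and *Sec14l5*.

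Most SRP subunits were lower in KO cells while both receptor subunits were higher. Of the 10 genes of this group, 7 were lower and 2 higher in KO against WT (28.4% and 26.7% of all genes), with or without WT 8, but 2 were lower (*Srp54a* and *Srp54c*) and 2 higher with library totals, and *Srp68*, a large scaffold subunit, was not called (log2 fold change −0.12 ± 0.15). The number lower was 5 without any one of KO 6, KO 7, KO 8 or WT 7. It was 4 without WT 5-6 (*Srp19* and the 3 *Srp54* genes). *Srp54a*, which encodes the GTPase that binds the signal sequence, measured 20.5, 17.3, 22.4 and 18.6 CPM in KO against 45.2, 42.2 and 33.3 CPM in WT and 38.9, 30.7, 37.0 and 33.1 CPM in KI. Every KO library lay below every WT and KI library. The fold change was −1.05 ± 0.15 on the log2 scale in KO against WT (edgeR adjusted *p* = 0.00017) and −0.82 ± 0.11 in KO against KI (adjusted *p* = 2.3e-05), whereas KI against WT gave −0.20 ± 0.15 and no call. Its copies *Srp54b* (−0.76 ± 0.14) and *Srp54c* (−0.83 ± 0.16) were lower in KO as well, and neither was called in KI against WT. In the GENCODE transcripts the coding sequences of *Srp54a* and *Srp54b* are 100% identical and that of *Srp54c* is 99.6% identical to either, so reads cannot be assigned among the 3 with certainty and they count as about one observation. Taken as 1 gene, they leave 5 of 8 lower in KO against WT, and 1 of 8 with library totals. In KI against WT, 2 of the 10 were higher and 3 lower (2 and 4 without WT 8), against 21.2% and 21% of all genes. The 3 *Srp54* genes lie on chromosome 12, where the other 409 genes tested had a median log2 fold change of −0.36 in KO against WT and 0.06 in KI against WT. The part of that shift in the fall of the 3 genes was not tested.

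*Srp19*, needed for SRP54 to join the SRP RNA, measured 64.3, 52.1, 57.3 and 45.3 CPM in KO and 125, 108 and 62.8 CPM in WT. WT 8 was as low as KO 5, so the groups overlapped, and the fold change of −0.87 ± 0.21 became −1.08 without WT 8. *Srp9* and *Srp14*, which form the domain that slows translation, behaved alike. *Srp9* had 127, 101 and 69.9 CPM in WT, 50.3 to 77.4 CPM in KO and 43.6, 52.6, 41.3 and 63.8 CPM in KI. It was lower in KO (−0.69 ± 0.20) and in KI (−0.98 ± 0.20), and *Srp14* likewise (−0.53 ± 0.19 and −0.61 ± 0.19), though the call of *Srp14* in KI was lost without any one of WT 5-6, WT 7, KI 5 or KI 7 and with library totals. In KO the call of *Srp9* was lost without WT 5-6, and those of *Srp14* and *Srp72* without any one of KO 6, KO 7, KO 8, WT 5-6 or WT 7. *Srp72*, the partner of *Srp68*, was lowest in KI, with 117 to 141 CPM against 161 to 184 CPM in KO and 199 to 230 CPM in WT. These 3 ranges did not overlap, and *Srp72* was lower than WT in KO (−0.36 ± 0.11) and in KI (−0.74 ± 0.13) and higher in KO than in KI (0.41 ± 0.08, edgeR adjusted *p* = 0.00077). By library totals, *Srp9*, *Srp14*, *Srp19*, *Srp54b* and *Srp72* were not called in KO against WT.

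The receptor went the other way in both lines. *Srpr*, the subunit that docks SRP, rose from 48.7, 53.2 and 64.4 CPM in WT to 74.0 to 80.9 CPM in KO (0.47 ± 0.13) and 72.3 to 95.9 CPM in KI (0.62 ± 0.15). *Srprb*, which anchors it in the membrane, measured 29.1, 27.3 and 30.1 CPM in WT, 46.3, 44.9, 40.1 and 42.8 CPM in KO and 46.0 to 54 CPM in KI. No WT library reached any KO or KI library, and the changes were 0.58 ± 0.12 in KO (edgeR adjusted *p* = 0.0019) and 0.80 ± 0.13 in KI (adjusted *p* = 0.00049). A caution is that 20.7% of the exonic bases of *Srprb* overlap the gene model *Gm20425* on the same strand. Per kilobase of transcript, *Srp14* was the most abundant of the group in all lines, at 203 CPM per kb in WT, 143 in KO and 133 in KI.

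In the translocon, 1 of 6 genes was higher and 1 lower in KO (26.7% and 28.4% of all genes) and 0 were higher and 1 lower in KI (21.2% and 21% of all genes), with or without WT 8. *Sec61a1*, the channel itself, had 247, 219 and 245 CPM in WT, 331, 329, 320 and 351 CPM in KO and 271, 275, 281 and 254 CPM in KI. KO lay above both other groups, with log2 fold changes of 0.47 ± 0.11 against WT (edgeR adjusted *p* = 0.005) and 0.30 ± 0.08 against KI (adjusted *p* = 0.004), and KI against WT was not called (0.19 ± 0.13). Its paralog *Sec61a2*, 78.8% identical in coding sequence, was far lower per kilobase (9.15 CPM per kb in WT against 74.7 for *Sec61a1*) and was not called in any comparison (−0.09 ± 0.15 in KO against WT). *Sec61g*, the small γ subunit, fell most of the group, from 189, 204 and 106 CPM in WT to 75.9, 67.3, 70.4 and 55.5 CPM in KO. KI libraries had 73.7, 90.3, 65.1 and 116 CPM, so KI 8 reached the level of WT 8. The changes were −1.33 ± 0.21 in KO (edgeR adjusted *p* = 0.0003) and −0.95 ± 0.23 in KI (adjusted *p* = 0.0057). *Sec61b*, the β subunit and the most abundant of the group per kilobase (120 CPM per kb in WT), was not called in any comparison, with 82.0, 68.8 and 53.0 CPM in WT (−0.05 ± 0.16 in KO), except as higher in KO with library totals. Its rank depends on the transcript lengths taken, 564 bases for *Sec61b* and 1862 for *Sec61g*. In CPM, *Sec61g* was above *Sec61b* in WT (means of 166 and 67.9). *Sec62* and *Sec63*, which serve post-translational import, had log2 fold changes of 0.02 ± 0.11 and −0.20 ± 0.11 in KO and were not called, although *Sec63* was called lower in KI against WT by DESeq2, with all 11 libraries in one fit, with annotated entries only and without WT 5-6, and library totals made *Sec62* higher in KO.

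Of 4 TRAP genes, 1 was called against WT in each line, where 55.1% (KO) and 42.3% (KI) of all genes were. *Ssr4*, the δ subunit and the most abundant per kilobase (384 CPM per kb in WT), measured 345, 337 and 199 CPM in WT, 198, 168, 175 and 146 CPM in KO and 160, 179, 146 and 214 CPM in KI. WT 8 lay just above KO 5 and below KI 8. The log2 fold changes were −0.79 ± 0.19 in KO (edgeR adjusted *p* = 0.0046) and −0.75 ± 0.20 in KI (adjusted *p* = 0.0089), neither was called by library totals, and the one in KI was lost without WT 7. Without WT 8 the group had 1 higher and 1 lower in KO and 1 higher and 2 lower in KI. *Ssr1* and *Ssr2* were not called with all libraries and TMM in the 2-group fits without a block. Each was called higher in KO or KI under some alternatives (*Ssr1* in both lines without WT 8, and both genes in both lines with library totals). *Ssr1* was also called higher in KO against WT with the replicate number as a block and with all 11 libraries in one fit. *Ssr3* was higher in KO than in KI (0.38 ± 0.08).

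Of 5 signal peptidase genes, 1 was higher and 1 lower in KO against WT (26.7% and 28.4% of all genes) and 1 was higher and 3 lower in KI (21.2% and 21% of all genes), with or without WT 8. With library totals, 4 were higher and 1 lower in KO, and 1 was higher and 1 lower in KI. Of the 3 lower in KI with TMM, *Sec11c* lost its call without any one of WT 5-6, WT 7, KI 5, KI 6 or KI 7, and with library totals. *Spcs1*, a small accessory subunit, fell from 402, 391 and 213 CPM in WT to 198, 138, 162 and 131 CPM in KO (−1.12 ± 0.22, edgeR adjusted *p* = 0.0015) and 154, 170, 138 and 203 CPM in KI (−1.02 ± 0.21, adjusted *p* = 0.0022). WT 8 was barely above the highest KI and KO libraries, and without it the changes were −1.33 and −1.25. Of its exonic bases, 16.3% overlap *Glt8d1* on the opposite strand, and the libraries are not stated to keep strand. *Spcs3*, which is essential for the complex, rose instead, with 88.4, 85.4 and 73.3 CPM in WT, 94.2 to 107 CPM in KO and 108 to 131 CPM in KI. The rise in KI was 0.56 ± 0.14, and that in KO (0.30 ± 0.12, edgeR adjusted *p* = 0.0496) was lost when any KO library or WT 7 was left out. *Spcs2* was not called in KO against WT (0.12 ± 0.14) and was lower in KI, where it measured 127, 117, 124 and 146 CPM against 223, 197 and 167 CPM in WT and 241, 204, 223 and 192 CPM in KO. KI did not overlap either group, with −0.61 ± 0.14 against WT (−0.27 and not called with library totals) and 0.75 ± 0.10 for KO against KI (edgeR adjusted *p* = 1e-05). Of the catalytic subunits, *Sec11c* was lower in KI than in KO (0.52 ± 0.13 for KO against KI), while *Sec11a* differed by 0.27 ± 0.09, a call lost without KO 5 or KI 7.

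COPII held more genes called higher in KO than any other role. Of 14 COPII genes, 7 were higher and 1 was lower in KO against WT, 10 and 1 without WT 8, and 9 and 1 with library totals, where 26.7% of all genes were higher and 28.4% lower, and the median log2 fold change was 0.65, against −0.03 for all genes tested. That COPII median was 0.50 without WT 7, 0.51 without KO 8 and 0.85 without WT 8. In KI against WT, 6 were higher and 1 lower (7 and 1 without WT 8) with a median of 0.16 (0.10 without WT 7, 0.25 without WT 8 and 0.28 without WT 5-6), against 21.2% and 21% of all genes. The number higher in KI was 4 without KI 5 and 5 without either KI 6 or WT 7. In KO against KI, 7 were higher and 1 lower with a median of 0.31, against 27% of all genes in each direction. These counts are a description of a group chosen by name and not a test of it. *Sec24d*, one of the cargo-binding SEC24 adaptors, rose most in KO. It measured 9.63, 7.71 and 10.5 CPM in WT, 30.3, 31.6, 33.4 and 37.0 CPM in KO and 14.8, 17.6, 15.4 and 12.7 CPM in KI. The 3 groups were fully separated in the order WT, KI, KO. KO was 3.52-fold above WT (log2 1.81 ± 0.15, edgeR adjusted *p* = 4.9e-06), KI 1.63-fold above WT (0.71 ± 0.18, adjusted *p* = 0.0066) and KO 2.19-fold above KI (1.13 ± 0.12, adjusted *p* = 1.2e-06).

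*Sec23b*, which with SEC24 forms the inner layer, followed with 76.4, 53.9 and 65.4 CPM in WT, 177, 149, 154 and 149 CPM in KO and 110, 101, 98.3 and 72.4 CPM in KI. KO stood above all others and KI 8 fell within the WT range. The log2 fold changes were 1.25 ± 0.14 in KO (edgeR adjusted *p* = 3.4e-05) and 0.55 ± 0.17 in KI (adjusted *p* = 0.019), the latter lost without any one of WT 7, KI 5 or KI 6. *Sec23ip*, a SEC23-binding protein of exit sites, measured 35.7, 43.4 and 53.1 CPM in WT, 90.0 to 113 CPM in KO and 58.3 to 86.5 CPM in KI, with no overlap of the 3 groups (1.21 ± 0.16 in KO and 0.75 ± 0.17 in KI against WT, and 0.48 ± 0.12 for KO against KI). *Sec13*, an outer layer subunit that also serves the nuclear pore, had 72.1, 44.7 and 52.8 CPM in WT, 127, 126, 118 and 114 CPM in KO and 114, 116, 112 and 89.0 CPM in KI. It rose about equally, by 1.08 ± 0.16 and 0.93 ± 0.17, and KO against KI was not called (0.17 ± 0.09). Its outer layer partner *Sec31a* measured 64.2, 67.9 and 108 CPM in WT, 114, 143, 132 and 158 CPM in KO and 78.3 to 86.7 CPM in KI, and was higher in KO against WT (0.75 ± 0.19) and against KI (0.76 ± 0.10, edgeR adjusted *p* = 1.5e-05) and was not called in KI against WT (0.01 ± 0.17), though it was called higher there without WT 8. *Sec31b* was almost silent, with 0 to 60 counts a library, and was not called (−2.46 ± 0.98 in KO against WT), but was called lower in KO by DESeq2 and by edgeR with annotated entries only, with the replicate number as a block and without KO 5. *Sec16a*, the scaffold of exit sites, ranged from 49.5 CPM in WT 5-6 to 113 CPM in WT 8 and was called in KO against KI alone (107 ± 23.0 CPM against 53.1 ± 6.93 CPM, 2.02-fold, edgeR adjusted *p* = 3.1e-05). Under alternatives it was also called higher in KO against WT, without WT 8 and with the replicate number as a block. In KI against WT it was called lower by DESeq2 and by edgeR with all 11 libraries in one fit, with annotated entries only, with no filter on low counts and without WT 5-6 or KI 7.

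*Sar1b*, the COPII GTPase that in humans is required for chylomicron export, was the COPII gene called lower in both lines. It measured 385, 390 and 211 CPM in WT, 122, 99.0, 110 and 75.8 CPM in KO and 137, 140, 121 and 177 CPM in KI. All WT libraries, WT 8 included, were above all others. KO was 3.28-fold below WT (log2 −1.71 ± 0.22, edgeR adjusted *p* = 9.6e-05), KI 2.29-fold below WT (−1.20 ± 0.21, adjusted *p* = 0.00068), and KO 1.41-fold below KI (−0.49 ± 0.14, with KO 5 overlapping KI 7). *Sar1a*, 78.8% identical in coding sequence, was not called, with 158, 138 and 119 CPM in WT, 149 to 185 CPM in KO (0.26 ± 0.13) and 159 to 180 CPM in KI (0.30 ± 0.14). Without WT 5-6 and with library totals, *Sar1a* was called higher in both lines. Per kilobase of transcript, *Sar1b* stood at 273 CPM per kb and *Sar1a* at 52.9 in WT, compared with 84.7 and 64.2 in KO and 120 and 65.0 in KI. *Sar1b* was thereby the most abundant COPII gene in WT and KI. In KO the means of *Sec13* (89.5 CPM per kb) and *Sar1b* (84.7) were close, and their order differed between the libraries.

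**Figure D3:**
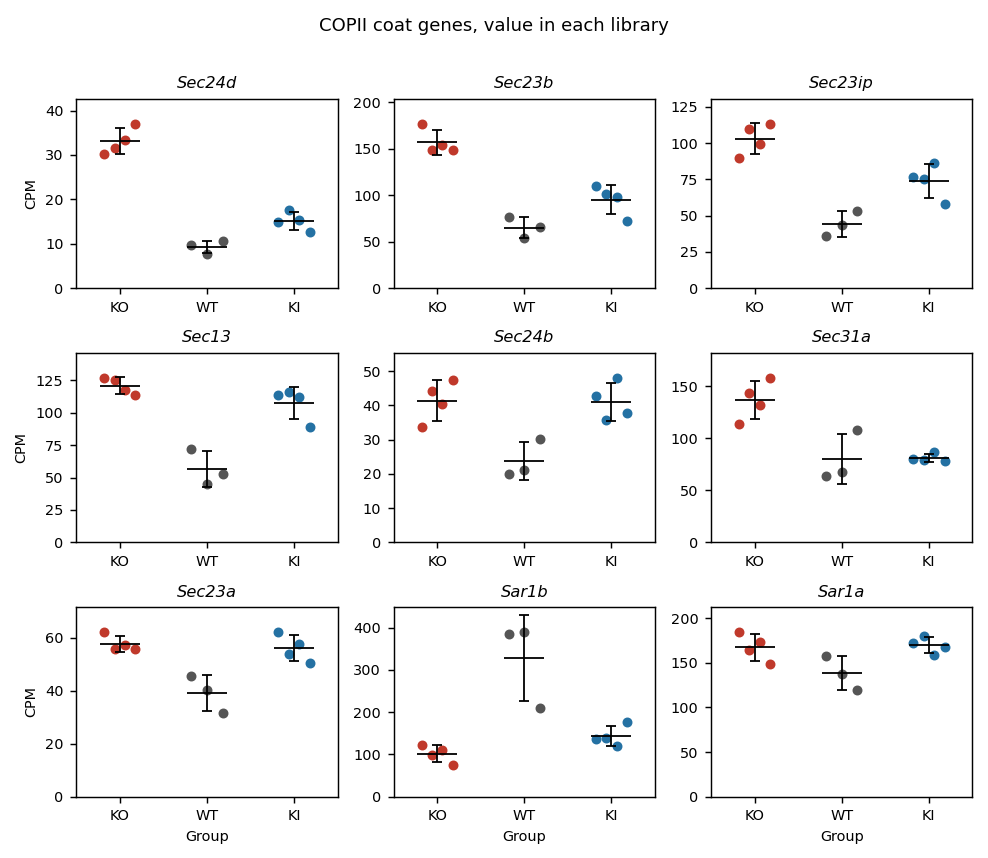
CPM of 9 COPII genes in each library (points) of KO, WT and KI, with the mean and SD (bars). *Sec24d* separates into WT, KI and KO, *Sec31a* in KO lies above both other groups, and *Sar1b* lies between 211 and 390 CPM in WT and between 75.8 and 177 CPM in KO and KI.

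The paralogs within the inner layer also changed their order. Among the SEC24 genes, *Sec24c* was the most abundant per kilobase in all lines (17.6 CPM per kb in WT, 21.3 in KO and 17.2 in KI). *Sec24d* was the least abundant in WT (2.38 CPM per kb), below *Sec24b* (4.65) and *Sec24a* (5.56), and in KO it stood at 8.48, next to *Sec24b* at 8.08 and above *Sec24a* at 6.31. In KI it was again the lowest (3.88), while *Sec24b* was at 8.00. *Sec24b* rose in both lines, from 20.1, 21.2 and 30.3 CPM in WT to 33.8, 44.1, 40.4 and 47.5 CPM in KO and 42.7, 35.7, 48.1 and 37.7 CPM in KI (0.78 ± 0.18 in each). *Sec24a* and *Sec24c* were not called against WT (0.16 ± 0.17 and 0.26 ± 0.18 in KO), though both were called higher in KO without WT 8. They were called in KO against KI by 0.32 ± 0.10 and 0.31 ± 0.11, with overlapping groups. These 2 calls were lost without KO 6, KO 8 or KI 6 and with all 11 libraries in one fit. That of *Sec24c* was also lost without KI 8 and with the replicate number as a block. Of the SEC23 pair (75.6% identical), *Sec23a* rose less than *Sec23b*, from 45.5, 40.1 and 31.7 CPM in WT to 55.6 to 62.2 CPM in KO (0.54 ± 0.14) and 50.6 to 62.1 CPM in KI (0.52 ± 0.15, lost without KI 5). *Sec16b* stayed under 2 CPM and was not called.

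For the 7 COPII genes called higher in KO and the other members, the sequence before the start sites was read from the RefSeq promoter table (GRCm38.p6, 250 bases before to 50 bases after each start), which matched 56 of the 64 members by symbol. The ER stress response element (ERSE, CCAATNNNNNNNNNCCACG) and ERSE-II (ATTGG and CCACG with 1 base between them), searched on both strands, were in 0 of the 56 and in 0.137% and 0.0444% of all 27025 genes with a promoter. CCAAT alone was in 26 members (46.4%) and in 41.1% of all genes. The hexamer ACGTGG, on either strand, was in 23 members (41.1%) and in 9.4% of all genes. It is the core bound by several basic leucine zipper factors of the unfolded protein response, and it shares bases with the E-box CACGTG and, as CCACGT, with ERSE. It was present for 8 of 14 COPII genes, 5 of 8 COPI genes, 3 of 8 p24 genes and 1 of 8 SRP and receptor genes. The longer form TGACGTGG, searched after these windows had been read, was in 5 members (*Copb1*, *Copb2*, *Sec16b*, *Sec23a* and *Sec24d*) and in 0.714% of all genes. Of the 23 members tested that held ACGTGG, 8 were higher and 2 lower in KO against WT, and of the 32 without it 3 were higher and 11 lower (26.7% and 28.4% of all genes). The 11 include *Sec14l2*, matched by name only, and the 3 *Srp54* genes, which count as about 1 observation. With library totals, *Srp9*, *Srp14*, *Srp54b*, *Srp72*, *Ssr4* and *Tmed4* of the 11 were not called. *Tmed3*, which holds the hexamer, was not called there either. In KI against WT the counts were 6 higher and 4 lower with the hexamer, and 6 and 8 without it (21.2% and 21% of all genes). In KO against KI they were 10 and 2 with it, and 10 and 9 without it (27% of all genes in each direction). Split by CCAAT, 4 of 26 were higher and 8 lower with it in KO against WT, and 7 of 29 higher and 5 lower without it. The CCAAT counts in KI against WT were 6 and 7 with it, and 6 and 5 without it. Those in KO against KI were 9 and 8 with it, and 11 and 3 without it. These promoters were not matched for base composition and no test was made, and a match of letters is not a binding site. Only some of the windows are shown, and *Spcs1* and *Tmed3*, called lower in KO, held the hexamer too, as did members that were not called. The windows below show the hexamer (capitals) before the starts of genes called higher in KO, *Sec24d* (chr3:123267450-123267495, + strand), *Sec24b* (chr3:130061049-130061098, − strand), an alternative start of *Sec31a* (chr5:100410064-100410113, − strand), *Srprb* (chr9:103202074-103202123, − strand) and *Sec22c* (chr9:121705175-121705224, − strand), and of *Sec16b* (chr1:157506732-157506781, + strand), which was not called. Each is written 5′ to 3′ on the strand of its gene.
Sec24d: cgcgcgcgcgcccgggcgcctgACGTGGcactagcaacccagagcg
Sec24b: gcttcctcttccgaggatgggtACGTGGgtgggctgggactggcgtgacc
Sec31a: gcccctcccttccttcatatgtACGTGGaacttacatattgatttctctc
Srprb: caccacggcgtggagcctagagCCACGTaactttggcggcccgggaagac
Sec22c: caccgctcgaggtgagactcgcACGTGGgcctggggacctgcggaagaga
Sec16b: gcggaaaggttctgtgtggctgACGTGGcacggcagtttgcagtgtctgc
Of these, *Sec24d* and *Sec16b* hold the longer form.

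Of the 3 genes of the Sec22 family, 1 was higher and 0 lower in KO (1 and 1 without WT 8) and 1 was higher and 1 lower in KI (the same without WT 8), against 26.7% and 28.4% of all genes in KO and 21.2% and 21% in KI. *Sec22b*, the SNARE that fuses vesicles with the ER and the Golgi and the most abundant per kilobase (20.4 CPM per kb in WT), was not called in any comparison (0.08 ± 0.15 in KO). *Sec22c* measured 7.98, 7.02 and 8.64 CPM in WT, 12.3, 17.8, 13.2 and 15.9 CPM in KO and 10.8, 11.1, 11.7 and 13.0 CPM in KI. WT was below both lines, by 0.89 ± 0.18 in KO (edgeR adjusted *p* = 0.0015) and 0.56 ± 0.17 in KI (adjusted *p* = 0.016), and KO against KI (0.35 ± 0.14) was called with overlapping libraries. The call in KI was lost without WT 7, and that between the lines without any one of KO 6, KO 8, KI 5, KI 6 or KI 7. *Sec22a* had 61.4, 60.4 and 34.0 CPM in WT, 33.1 to 46.8 CPM in KO and 28.1, 29.1, 24.6 and 37.4 CPM in KI. It was lower in KI (−0.80 ± 0.21), although KI 8 exceeded WT 8 and the call was lost with library totals (−0.45), and in KO against WT it was called lower without WT 8 but not with it (−0.44 ± 0.21).

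Of 8 COPI genes, 1 was called in KO against WT (55.1% of all genes) and 0 in KI against WT (42.3% of all genes) by edgeR, where 2 had an unadjusted *p* under 0.05 and DESeq2 called 2 (*Copb1* lower, *Copz1* higher). Without WT 8, 2 were higher and 1 lower in each line, and with library totals 5 were higher in KO and 2 in KI. *Copg1*, a γ subunit, measured 95.4, 98.7 and 149 CPM in WT, 185, 203, 192 and 208 CPM in KO and 127, 134, 136 and 104 CPM in KI. KO lay above WT, WT 8 included, and the change was 0.76 ± 0.16 (edgeR adjusted *p* = 0.0023), or 1.03 without WT 8. Its paralog *Copg2* (71.9% identical) was not called (−0.07 ± 0.12), and 17.8% of its exonic bases overlap *Mest* on the opposite strand. *Copa*, the α subunit, showed how far WT 8 differed, with 186, 231 and 321 CPM in WT against 274 to 344 CPM in KO, and was called higher in KO without it but not with it (0.32 ± 0.18). *Copb2* was not called in KO against WT (−0.36 ± 0.15), but DESeq2 called it lower there. So did edgeR with all 11 libraries in one fit, with annotated entries only, with the replicate number as a block, and without KO 5 or WT 8. In KO against KI, 4 of 8 were higher and 1 lower, against 27% of all genes in each direction. *Copb1* (β) had 518, 435, 483 and 401 CPM in KO and 328, 304, 278 and 345 CPM in KI (0.55 ± 0.10, edgeR adjusted *p* = 0.00024), *Copg1* differed by 0.66 ± 0.10 and *Copa* by 0.38 ± 0.10, while *Copb2* (β′), the most abundant per kilobase in WT (155 CPM per kb), was lower in KO by −0.36 ± 0.09. *Copz2*, a minor ζ subunit, had 64, 96, 117 and 80 counts in KO, 24, 56 and 67 in WT and 33, 35, 0 and 20 in KI. Its difference between KO and KI (2.01 ± 0.61, edgeR adjusted *p* = 0.012) rests on these small counts, was 1.58 without KI 7 and was not called by DESeq2. *Copz1*, 71% identical to it, carried most ζ transcripts at 114 ± 7.46 CPM in WT and was not called. The δ subunit, *Arcn1*, has a name outside the rule and was not called either (0.13 ± 0.11 in KO and 0.21 ± 0.14 in KI).

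In KO against KI, 3 of 10 p24 receptors were higher and 6 lower, *Tmed6* and *Tmed8* (counted here by its name) included, also with library totals (27% of all genes in each direction). Against WT, 3 of the 9 tested were lower and 0 higher in KO (4 and 0 without WT 8, 28.4% and 26.7% of all genes), and 3 of 10 were higher and 5 lower in KI (the same without WT 8, 21.2% and 21% of all genes), a direction that turned with library totals (3 higher and 1 lower in KO, 5 higher and 1 lower in KI). The lower calls in KI were fewer without other libraries, 1 without WT 5-6, 2 without any one of WT 7, KI 5 or KI 7, 3 without KI 6 and 4 without KI 8. *Tmed7*, the most abundant per kilobase (325 CPM per kb in WT), had 440, 532 and 341 CPM in WT, 232, 200, 226 and 184 CPM in KO and 254, 241, 238 and 305 CPM in KI. The groups did not overlap. The log2 fold change was −1.08 ± 0.17 in KO (edgeR adjusted *p* = 0.00027) and −0.76 ± 0.17 in KI (adjusted *p* = 0.0035), with 9.48% of its exonic bases shared with *Ticam2* on the same strand.

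*Tmed4*, of the α family, was the one member called in opposite directions. It measured 65.2, 66.5 and 69.6 CPM in WT, 48.3, 40.9, 47.4 and 44.8 CPM in KO and 85.8 to 106 CPM in KI. The replicates were tight, WT 8 included, and the 3 groups were separate. *Tmed4* was lower in KO (−0.59 ± 0.11, edgeR adjusted *p* = 0.0012, not called by library totals), higher in KI (0.51 ± 0.13, adjusted *p* = 0.0072), and lower in KO against KI (−1.07 ± 0.09, adjusted *p* = 1.7e-07). Its relative *Tmed9* had 145, 124 and 129 CPM in WT, 111 to 121 CPM in KO and 95.4 to 108 CPM in KI, a log2 fold change of −0.40 ± 0.12 in KI that lost its call without any one of WT 5-6, KI 5 or KI 7. *Tmed1*, of the γ family, rose in KI to 10.8, 16.0, 13.7 and 9.03 CPM from 6.51, 7.14 and 4.99 CPM in WT (0.99 ± 0.23), with 13.6% of its exonic bases overlapping *Dnm2* on the opposite strand. *Tmed8* rose in KI as well, to 17.7, 13.1, 17.1 and 15.8 CPM from 9.58, 9.44 and 8.18 CPM (0.81 ± 0.17, edgeR adjusted *p* = 0.0021), and neither was called in KO against WT. *Tmed2* and *Tmed10*, the β and δ members that pair in the common p24 complex, diverged between KO and KI. *Tmed2* was higher in KO (0.55 ± 0.10) and *Tmed10* lower (−0.32 ± 0.08). The call of *Tmed2* as lower in KI against WT (−0.50 ± 0.16) was lost without any one of WT 5-6, WT 7, KI 5 or KI 8. *Tmed3* was lower in both lines (−0.40 in each), but the calls were lost when any one of several libraries was left out (WT 5-6, WT 7, KO 7 or KO 8 in KO, and WT 5-6, WT 7, KI 5, KI 6 or KI 7 in KI). *Tmed5* was lower in KI (−0.62 ± 0.19), where WT ranged from 82.5 to 147 CPM and the call was lost without WT 5-6, WT 7, KI 6 or KI 7. *Tmed6* passed the count rule by way of KI, with 30, 41, 25 and 35 counts there, 0, 8, 10 and 6 in KO and 18, 4 and 5 in WT, and was not tested in KO against WT.

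Of the genes matched by name only, *Sec14l2*, a lipid-binding protein of the cytosol, had 8.52, 7.02 and 9.45 CPM in WT, 3.79, 4.56, 3.81 and 4.65 CPM in KO and 9.90, 11.7, 12.6 and 9.37 CPM in KI. KO was below both groups, 2.01-fold against WT (edgeR adjusted *p* = 0.001) and 2.58-fold against KI (adjusted *p* = 3.35e-06). *Sec14l5* had 41, 39, 16 and 54 counts in KO, 6, 12 and 0 in WT and 0, 8, 0 and 14 in KI, and passed the count rule mainly by way of KO. *Sec1* was not called, and *Sec14l1* was called, as higher in KO against WT, only without WT 8.

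Fold changes varied with transcript length. Across the 63 members tested in KO against WT, Spearman's rho between log2 fold change and transcript length was 0.38, and in KI against WT it was 0.27, with all points sharing the same libraries. Over all genes with a length, rho was 0.14 and 0.16. Of 18 members under 1500 bases, 1 was higher and 8 were lower in KO, and of 19 such members, 2 were higher and 9 lower in KI. Among all genes of that length, 17.2% were higher and 39.1% lower in KO, and 13.6% and 30.8% in KI. Of 24 members over 3500 bases, 29.2% were higher and 16.7% lower in KO against WT, where 32.4% and 22.4% of all genes of that length were. In KO against KI, 4 of 19 members under 1500 bases were higher and 5 lower, with a median of 0.02. Among all genes of that length, 23.0% were higher and 29.0% lower in KO against KI, with a median of −0.08. *Srp9*, *Srp14*, *Srp19*, *Ssr4*, *Spcs1*, *Sar1b* and *Tmed7* are all under 1500 bases, as is *Sec13*, which rose in both lines. In WT 5-6 and WT 7, the libraries with the highest level of short members, *Spcs1* was at 402 and 391 CPM and *Sar1b* at 385 and 390 CPM, compared with 213 and 211 CPM in WT 8. Without WT 8 these falls were larger, and the part of transcript length in them was not tested.

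**Figure D4:**
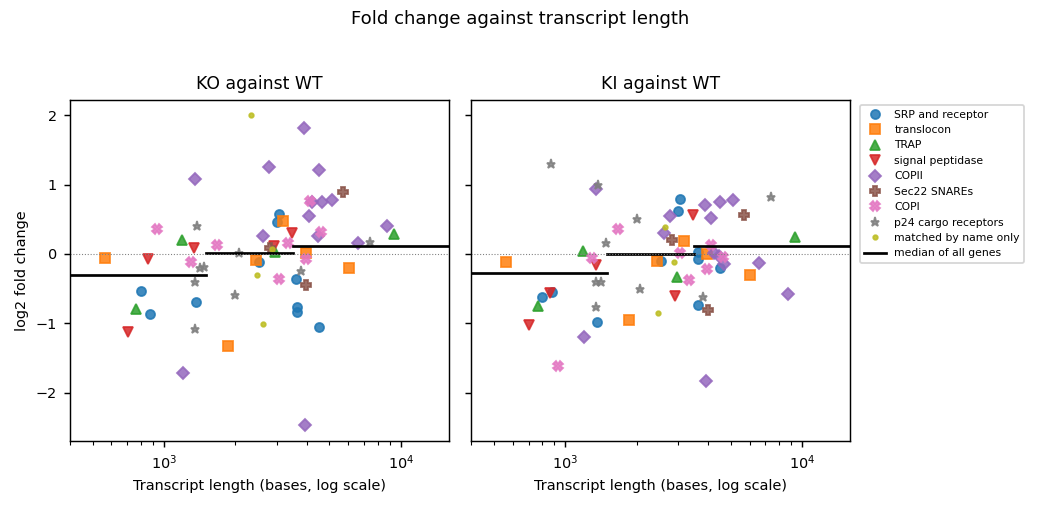
Log2 fold change of each member against the length of its principal transcript (bases, log scale), by role, in KO against WT and KI against WT, with the median of all genes in 3 length classes (black lines). Most short members lie below 0 in both comparisons, *Sec13* being the short COPII gene above 0, and the median of all genes under 1500 bases was −0.30 and −0.28.

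Neighbouring parts of the pathway, taken as whole lists, held calls in both directions. For these counts, 26.7% of all genes were higher and 28.4% lower in KO against WT, and 21.2% and 21% in KI against WT. Of 12 oligosaccharyltransferase genes, which add N-glycans as proteins enter the ER, 3 were higher and 3 lower in KO against WT, near the share of all genes. *Ddost* (1.03 ± 0.15), *Rpn2* (0.71 ± 0.16) and *Rpn1* (0.42 ± 0.12) rose, and *Tusc3* (4.01-fold lower), *Tmem258* (−1.47 ± 0.21) and *Ost4* (−0.83 ± 0.20) fell. In KI, 1 was higher (*Ddost*, 0.75 ± 0.17) and 2 lower. Of 29 other translocon partners and membrane insertases, 10 were higher and 6 lower in KO and 9 and 8 in KI. *Nomo1*, a translocon partner, rose in both (1.45 ± 0.15 and 0.95 ± 0.15), *Hyou1*, an ER chaperone, rose in KO (1.23 ± 0.15), and *Emc6* of the ER membrane complex fell in both (−1.22 ± 0.19 and −1.06 ± 0.19). *Emc9* fell in both as well (−1.09 ± 0.23 in KO and −2.08 ± 0.22 in KI). *Sil1*, of the same list as *Hyou1*, was lower in KO against WT (−1.10 ± 0.16) and against KI (−0.39 ± 0.13). *Hspa5* (BiP), the lumenal chaperone that draws chains through SEC61, was higher in KO than in KI by 1.39 ± 0.11 (2695 ± 274 CPM against 1031 ± 113 CPM), with WT between them at 1740 ± 310 CPM.

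Among 26 COPII accessory genes and cargo receptors tested in KO, 7 were higher and 6 lower, near the 26.7% and 28.4% of all genes, and in KI 2 and 2 of 27 were, against 21.2% and 21%. *Surf4*, a cargo receptor for secreted lipoproteins and other proteins, rose in KO (0.93 ± 0.13), *Mia2*, which helps load large cargo, rose in both (0.84 ± 0.12 and 1.33 ± 0.14), and the tethering subunit *Trappc2* fell in KO (−1.04 ± 0.25). Of 23 COPI accessory, Arf and retrieval genes, 9 were higher and 4 lower in KO and 3 and 2 in KI, led by *Nbas* (1.28 ± 0.19 in KO), of the tether that receives COPI vesicles at the ER, and *Use1* (−1.24 ± 0.20 in KO). The KDEL receptor gene *Kdelr3* fell in KO (−0.62 ± 0.14). Of 20 clathrin and adaptor genes, 8 were higher and 2 lower in KO and 4 and 2 in KI, the clathrin heavy chain *Cltc* falling in KO (−0.89 ± 0.16) and the light chain *Cltb* rising (0.67 ± 0.11). Of 11 regulators of secretory pathway genes, 2 were higher and 3 lower in KO and 1 was higher and 3 lower in KI. *Xbp1* was lower in KO (−0.65 ± 0.14) and in KI (−0.56 ± 0.14), with 363, 327 and 274 CPM in WT. *Creb3l1* was lower in KO (−1.94 ± 0.22), at 2.69 ± 0.45 CPM against 10.2 ± 2.36 CPM in WT and 10.9 ± 0.78 CPM in KI, *Creb3l3* was lower in KO and in KI (−1.13 ± 0.25 and −1.20 ± 0.27), *Creb3* was lower in KI (−0.46 ± 0.16), *Ddit3* was higher in KO (1.11 ± 0.16) and *Atf6b* higher in both lines (0.85 ± 0.13 in KO and 0.68 ± 0.14 in KI). The counts of RNA say nothing of splicing or cleavage of these factors.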

How the data were processed

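Poly(A) RNA of 11 AML12 libraries was sequenced by the authors, who deposited 1 table of raw counts per gene. HISAT2, TopHat2, Bowtie2 and StringTie are named in the submitters' processing notes, and the counter, versions and genome build are not given in the sources used here. Of 26472 lines, 26462 entries were used (10 without a gene identifier and whole-number counts were left out), of which 2960 were newly assembled, and counts were summed by gene name. The table's FPKM columns and the authors' own comparisons (fold changes and adjusted *p* values from DESeq2) were not used. edgeR 4.0.16 in R 4.3.3 (filterByExpr, TMM, robust quasi-likelihood test, Benjamini-Hochberg adjustment over all genes tested) compared each pair of groups, with an adjusted *p* under 0.05 as the call. DESeq2 1.42.0, other scalings and filters, a replicate block, and leaving out each library were the alternatives. Scripts were tested on simulated data. Lengths and coding sequences came from GENCODE vM21 (GRCm38; principal transcripts), aligned with Biopython 1.88. The members and gene lists were chosen with earlier results of these data known. Named in full were, per role and comparison, the 3 called genes with the largest change. The rule also named the COPII, COPI and Sec61 paralogs and the most abundant gene per kilobase of each complex. Members outside this rule were added after their values were seen. Of each gene list, only some called genes were named, and these were not always the ones with the largest change. Counting error is small at these depths, and the spread between libraries limits precision.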

Additional observations from a re-analysis of the deposited data

Results flagged for a closer look

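In 128 groups of 4 libraries (KO and KI of every member), the gap between the most extreme library and its nearest neighbour, divided by the range, exceeded Dixon's critical value in 6, where chance alone gives about 1 in 20 (6.4). Among KO libraries, *Cope* was high in KO 5 (0.921), *Srp54c* was high in KO 5 (0.849) and *Sec14l5* was low in KO 7 (0.878). Among KI libraries, KI 8 was low for *Sec13* (0.863), *Tmed10* (0.87) and *Sec62* (0.83). *Sec13* kept its call in KI against WT whichever library was left out, and *Cope* and *Sec62* were called in no comparison by edgeR with TMM.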

How the results depend on the processing

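Scaling to library totals in place of TMM, which moved the median of all genes to 0.38 (KO against WT), 0.31 (KI against WT) and 0.06 (KO against KI), gave 32 members higher and 7 lower in KO against WT and 24 higher and 6 lower in KI against WT. It also brought *Txndc5* in KI against WT to 0.57 (adjusted *p* = 0.0062) and turned *Tmed3* in KO against WT to 0.022. Leaving out single libraries gave 12 to 19 higher and 11 to 18 lower in KO against WT, 11 to 17 higher and 9 to 18 lower in KI against WT (the lowest without WT 7), and 19 to 23 higher and 11 to 16 lower in KO against KI. With the replicate block there were 17 higher and 18 lower, 13 and 12, and 19 and 11 in these comparisons. The block added *Copa*, *Copb2*, *Sec16a*, *Sec22a*, *Sec24c*, *Sec31b* and *Ssr1* in KO against WT and lost *Sec11c*, *Tmed3* and *Tmed5* in KI against WT and *Sec22a*, *Sec22c*, *Sec24c*, *Spcs3*, *Tmed7* and *Tmed9* in KO against KI. Of the same-numbered libraries KO 8 and WT 8 deviated together (correlation 0.503) and the other pairs had −0.383 to 0.0714, so the numbers were not taken to pair the libraries. All 11 libraries in one fit gave 16 higher and 11 lower in KO against KI. DESeq2, the other filters and the other ways of joining entries kept each count of calls within 1.5 times. *Sec24d*, *Sar1b* and *Sec13* against WT kept their calls under every alternative. Genes under about 100 counts a library (*Copz2*, *Sec14l5*, *Sec16b*, *Sec31b*, *Tmed6* and *Sec1*) are limited by depth.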
